A study of Mus musculus with 12 samples.

Results

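The 480 genomic intervals described here are those whose chromatin accessibility differed between Zfp266 knockout (KO) and control mouse embryonic fibroblasts (MEFs) in the authors' deposited differential table. They are 0.176% of the 273256 intervals obtained by merging the peaks of all groups. In 479 of them the mean normalised read count was higher in KO (0.175% of the merged intervals), and 1 was lower. The 479 are called more open regions (MORs) below. The table holds only intervals that passed the authors' threshold in this same contrast. Counts in KO and control are therefore given as a description, and their separation is set by that choice.

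Open chromatin was assayed by Omni-ATAC-seq, in which the transposase Tn5 inserts sequencing adaptors where DNA is accessible. MEF control cells (labelled wild type) were transduced with a non-targeting guide RNA, and MEF Zfp266 KO cells with a guide RNA against Zfp266. Each group has 3 libraries of 50000 sorted cells, taken 96 h after transduction. Both groups are passage-2 fibroblasts of strain 129 from embryos of day 12.5. Both also carry Cas9 driven from Rosa26, a doxycycline-inducible cassette of the reprogramming factors at Sp3 and a Nanog-GFP reporter, and the MEF groups received no doxycycline. The embryos were chimeras made from 1 modified embryonic stem cell line. The KO is a transduced and sorted pool, not a clone, so wider opening in a few cells and modest opening in many cells cannot be told apart. The series also has control and KO cells in which doxycycline (300 ng/ml) drove the factors for 72 h with vitamin C (10 µg/ml) added, named reprogramming, with 3 libraries each, which are used only where named.

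ZFP266 is a predicted KRAB zinc finger protein. Proteins of this family bind DNA through arrays of zinc fingers, and their KRAB domain recruits the corepressor TRIM28 together with enzymes that deposit repressive histone marks. Many of them bind transposable elements. B1 elements are short interspersed nuclear elements (SINEs) of rodents that derive from 7SL RNA and are spread over gene-rich sequence. AP-1 is a dimer of FOS and JUN proteins that is abundant in cultured fibroblasts and binds a short palindrome.

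The sequences that recur in the results are shown first, each read 5′ to 3′ from GRCm38. The Zfp266 guide that the study marks for detailed work matches chr9:20505088-20505109 on the minus strand, in a coding exon (exon 6 of transcripts Zfp266-201 and Zfp266-202). Which guide served for ATAC-seq is not given in the sources used here. The guide's target is shown with its PAM in capitals, because it defines the KO.
Zfp266 guide target: cagaagaatctataccgagAGG
Accessibility does not measure the edit itself, so the KO label could not be checked from these files.

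The next set shows the B1 consensus and the B1 copies of 6 among the 12 intervals with the smallest edgeR p-values. The consensus was built here from repeat-masked sequence of chromosome 19. Capitals in a copy mark bases identical to it, and every copy is written on the strand of the consensus.
B1 consensus: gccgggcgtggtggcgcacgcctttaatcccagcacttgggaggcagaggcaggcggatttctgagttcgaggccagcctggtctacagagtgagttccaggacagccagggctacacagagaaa
near Chd7, chr4:8917498-8917581, plus strand: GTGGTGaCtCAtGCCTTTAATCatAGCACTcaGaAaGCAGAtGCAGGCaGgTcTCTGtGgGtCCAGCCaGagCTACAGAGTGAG
near Gem, chr4:11727581-11727672, minus strand: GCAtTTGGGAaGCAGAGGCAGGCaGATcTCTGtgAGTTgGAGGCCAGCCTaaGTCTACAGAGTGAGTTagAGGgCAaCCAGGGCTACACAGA
Gm49450, chr15:98941470-98941578, minus strand: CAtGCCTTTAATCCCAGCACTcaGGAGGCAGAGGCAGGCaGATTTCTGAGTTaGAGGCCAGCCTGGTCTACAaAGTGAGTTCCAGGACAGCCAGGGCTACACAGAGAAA
near Med18, chr4:132458178-132458282, minus strand: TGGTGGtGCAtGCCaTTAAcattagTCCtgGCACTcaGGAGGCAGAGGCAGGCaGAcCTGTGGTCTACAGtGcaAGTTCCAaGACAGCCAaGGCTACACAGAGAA
near C77080, chr4:129267366-129267481, minus strand: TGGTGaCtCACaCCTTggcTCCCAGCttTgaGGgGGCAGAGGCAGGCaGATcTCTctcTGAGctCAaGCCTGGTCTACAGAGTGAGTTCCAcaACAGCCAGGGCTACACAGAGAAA
near Rps3, chr7:99504946-99505070, minus strand: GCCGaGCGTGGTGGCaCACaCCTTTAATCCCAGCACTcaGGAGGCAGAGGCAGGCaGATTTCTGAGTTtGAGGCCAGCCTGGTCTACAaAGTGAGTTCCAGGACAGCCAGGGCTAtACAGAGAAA
The copy near Rps3 was identical to the consensus at 93% of aligned positions and spanned all 125 bases of it. The copies at Chd7, Gem, Gm49450, Med18 and C77080 were 74%, 86%, 94%, 70% and 81% identical.

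The MOR with the largest KO/control ratio, in an intron of Rab30, is shown over 300 bases (chr7:92785141-92785440, minus strand), with its B1 copy in capitals and no AP-1 string.
Rab30 intron: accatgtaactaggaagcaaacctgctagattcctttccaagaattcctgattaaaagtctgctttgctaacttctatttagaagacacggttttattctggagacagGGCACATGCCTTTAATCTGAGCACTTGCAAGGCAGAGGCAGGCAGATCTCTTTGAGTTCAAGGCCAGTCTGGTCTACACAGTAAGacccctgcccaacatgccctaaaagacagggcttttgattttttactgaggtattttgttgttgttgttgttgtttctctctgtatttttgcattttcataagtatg

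The last set shows the AP-1 string TGANTCA, in capitals, nearest the midpoint of leading MORs that held no B1 copy, with the plus strand written.
near Flvcr1, chr1:190998233-190998293: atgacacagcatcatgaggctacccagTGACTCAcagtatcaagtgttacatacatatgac
Cacna1a intron, chr8:84459055-84459115: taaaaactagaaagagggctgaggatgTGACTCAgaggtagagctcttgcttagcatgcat
Mrvi1 intron, chr7:110950685-110950745: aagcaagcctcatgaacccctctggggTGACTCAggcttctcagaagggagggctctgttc
Ccdc58 intron, chr16:36079681-36079741: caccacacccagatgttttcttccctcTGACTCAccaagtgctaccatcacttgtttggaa
A match to these letters is a description of the sequence and not a binding site.

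The 6 MEF libraries held 33936 to 86490 reads in the listed intervals, which is not their sequencing depth. Replicates differed by more than counting noise in every pair (chi-square over degrees of freedom of 1.16 to 1.69). Nothing in the labels says that replicates came from separate embryos, so the spread between them may be technical. Start sites of all 10 fibroblast markers examined lay in a peak in control and in KO, with a summed peak fold of 29.5 and 28.6. None of the 3 skeletal muscle start sites (Myod1, Myog and Myf5) did. Start sites of the pluripotency factors Pou5f1, Nanog and Zfp42 held no peak in either group, and that of Esrrb held one of fold 1.92 in control and none in KO. Peaks also lay over 1 of 4 endothelial, 2 of 4 immune, 3 of 4 epithelial and 2 of 4 neural and glial start sites in both groups, with summed folds of 5.59, 5.02, 10.59 and 5.25 in control and 5.98, 4.75, 11.1 and 5.19 in KO. Whether other cells had a part in the results was not tested.

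The MORs ranged from sequence that was almost closed in control MEFs to sequence that was already open. Their control mean ran from 1.49 to 552.3 normalised reads with a median of 41.3, and their KO mean from 15.6 to 698.3 with a median of 95.2. The libraries agreed closely on these levels, with per-library medians of 41.1 to 43.1 in control and 94.6 to 99.98 in KO. The median log2 ratio of KO over control (pseudocount of 1) was 1.06, with quartiles of 0.74 and 1.47. In 38 MORs the mean was at least 4 times higher on this scale, and of these 33 had a log2 ratio from 2 to 3 and 5 above 3. At the other end, 20 MORs had a log2 ratio under 0.5, and all 20 already had a peak in control. These 20 had a median of 230.6 normalised reads in control and 318.4 in KO. Every KO library lay above every control library in all 479 MORs, a separation that follows from how the list was made.

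**Figure D1:**
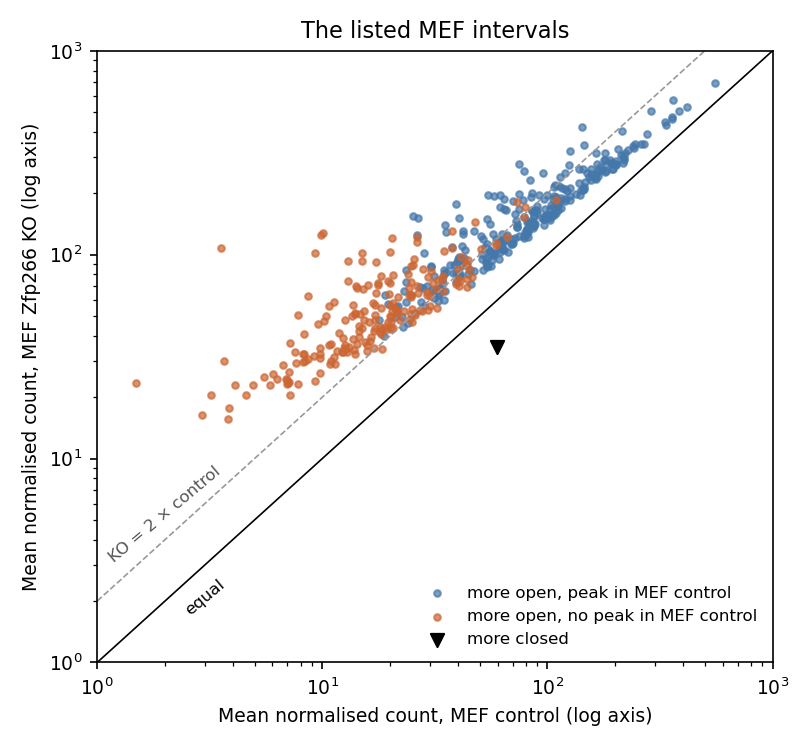
Mean normalised read count of each listed interval in MEF control (x axis) and MEF Zfp266 KO (y axis), both on log axes, as means of 3 libraries. Blue and orange points are MORs with and without a MEF control peak, the triangle is the 1 more closed interval, the solid line is equality and the dashed line a KO mean 2 times the control mean; MORs without a control peak had control means of 1.49 to 109.0.

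Peak calls from the merged replicates of each group describe the same intervals without replicate error. Of the 479 MORs, 197 had no MEF control peak. These had a median of 17.1 normalised reads in control and 51.3 in KO, and a median log2 ratio of 1.46. The 282 with a control peak went from a median of 80.6 to 150.8, with a median log2 ratio of 0.82. A peak in KO alone was found at 178 MORs (37.2%), against 5.77% of the 173103 merged intervals that had a peak in either MEF group. The other 19 had no MEF peak at all and entered the table through a peak of the reprogramming groups. Where both groups had a peak, the fold enrichment over background was higher in KO at 237 of 282 MORs (84%), against 40.7% of all MEF intervals with both peaks. The median difference in fold was 0.80 at MORs and -0.07 over all intervals. These folds come from the same libraries as the list, and they are not independent of it.

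Of the 12 intervals with the smallest edgeR p-values, 11 are described with every library, and the plot of counts at 11 intervals shows them together. Counts are normalised reads, given as control replicates 1 to 3 and KO replicates 1 to 3. Log2 fold changes are from edgeR with their standard error (SE).

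The largest relative change was at Interval_230434, chr7:92784621-92785525, in an intron of Rab30, a Golgi-associated GTPase gene. It was nearly closed in control, with 2.16, 2.75 and 5.74 reads, and had 117.2, 102.2 and 103.0 in KO. The mean was 30.3-fold higher (edgeR log2 fold change 4.94, SE 0.27), the interval had no control peak, and its KO peak had a fold of 4.40. This leaves 3 others of the 12 without a control peak. Interval_174985, chr4:8917108-8917613, had as its nearest gene Chd7, a chromatin remodeller mutated in CHARGE syndrome, 62129 bp away. Its counts were 8.63, 7.33 and 14.3 in control and 138.5, 132.3 and 113.1 in KO. Interval_175339, chr4:11727364-11728281, lay 22015 bp from the start of Gem, which encodes a small GTPase of the RGK family. It had 10.8, 8.25 and 10.5 reads in control and 112.3, 128.2 and 134.3 in KO. Interval_187172, chr4:129266960-129267761, lay 5956 bp from C77080, with 7.19, 9.16 and 11.5 reads in control and 116.4, 89.8 and 98.95 in KO. All 4 of these control-closed intervals held a B1 copy, as did 250 of the 479 MORs (52.2%).

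The others were already accessible in control. Interval_19317, chr1:190997868-190998587, lay 10228 bp from Flvcr1, which encodes a membrane transporter. Its counts were 74.1, 76.96 and 73.6 in control and 296.7, 263.3 and 273.6 in KO. Interval_244921, chr8:84458639-84459645, in an intron of the calcium channel gene Cacna1a, had 78.4, 69.6 and 87.96 reads in control and 283.6, 231.8 and 257.5 in KO. Interval_232395, chr7:110950277-110951407, in an intron of Mrvi1, a substrate of cGMP-dependent kinase, had 143.8, 152.1 and 141.5 in control and 319.6, 361.4 and 354.4 in KO. None of these 3 held a B1 copy, and all held the AP-1 string. Interval_104439, in an intron of Ccdc58, was of the same kind, with 39.5, 37.6 and 41.1 reads in control and 177.8, 163.9 and 191.8 in KO.

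Interval_187676, chr4:132457819-132458727, lay 5058 bp from Med18, which encodes a Mediator subunit. It had 23.0, 15.6 and 37.3 reads in control and 155.7, 155.0 and 153.5 in KO, and its peak fold was 1.98 in control and 5.14 in KO. Interval_231272, 21719 bp from the ribosomal protein gene Rps3, had 30.2, 27.5 and 21.99 in control and 175.4, 136.4 and 143.4 in KO. Both held a B1 copy. Interval_99162, chr15:98940892-98942222, lay in Gm49450, a gene model that spans the alpha-tubulin genes Tuba1a and Tuba1b, so its gene cannot be named with certainty. Its counts were 127.2, 130.1 and 118.5 in control and 322.9, 329.1 and 320.1 in KO, while its merged peak fold was 6.13 in control and 4.45 in KO. Peak fold and read count thus moved in opposite directions at this interval.

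**Figure D2:**
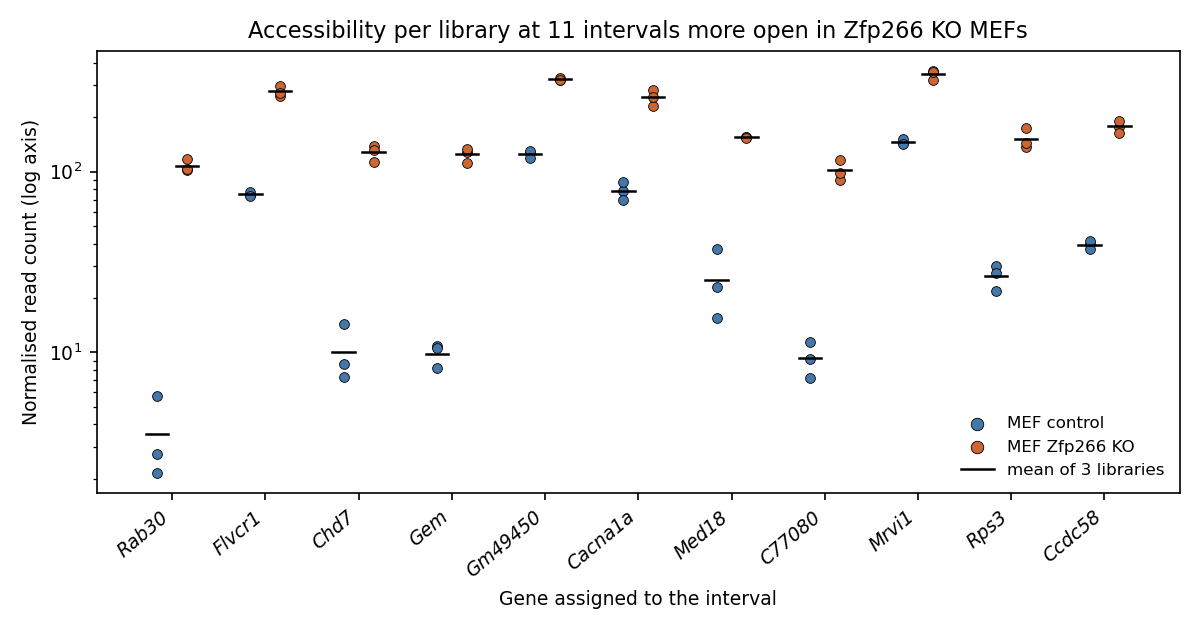
Normalised read counts (log axis) of each of the 6 MEF libraries at 11 of the 12 intervals with the smallest edgeR p-values, named by assigned gene on the x axis. Blue and orange points are MEF control and MEF Zfp266 KO libraries and bars are means of 3; at Rab30 the KO libraries lie at 102.2 to 117.2 and the control libraries at 2.16 to 5.74.

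Other MORs among the 8 with the largest ratios lay at genes of unlike function. Interval_84240, 4191 bp from the cell cycle gene Rb1, had 14.4, 8.25 and 16.3 reads in control and 86.9, 108.3 and 84.8 in KO. Interval_109916, in an intron of Hlcs, which encodes holocarboxylase synthetase, had 10.1, 6.41 and 9.56 in control and 66.4, 63.1 and 57.6 in KO. Interval_114837, in an intron of H2-T24, a non-classical MHC class I gene, had the lowest control mean of all, 1.49 ± 0.67 (SD, n = 3), against 23.5 ± 2.24 in KO. H2-T24 belongs to a multigene family, and whether its reads could be told apart from those of its relatives was not measured. Interval_267479, in an intron of the X-linked placental gene Plac1, went from 3.64 ± 3.48 to 30.2 ± 5.60. The low counts of these last intervals make their ratios imprecise (SE of the edgeR log2 fold change 0.52 and 0.39).

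Among the MORs with the highest control means, the change was small on a relative scale. Interval_173609, 385 bp from the start of Gipc2, had the highest mean, with 574.4, 565.3 and 517.2 reads in control and 717.9, 673.3 and 703.7 in KO (log2 ratio 0.34). Interval_236321 near Eps8l2, Interval_234511 near Stx4a and Interval_38307 in Slit3 had log2 ratios of 0.35, 0.39 and 0.40. Interval_12696, 10407 bp from Phlda3, a target of p53, stood apart with 361.8 ± 11.2 in control and 575.4 ± 9.21 in KO, a log2 ratio of 0.67. At the low end, the control means of Interval_155026 in Phf20, Interval_89460 (111535 bp from the start of Rai14) and Interval_267479 in Plac1 were 3.21, 2.91 and 3.64 reads.

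The 1 more closed interval, Interval_260165, chr9:82218442-82220293, was intergenic and 355658 bp from the nearest coding start, that of Mei4. Its control libraries had 40.3, 73.3 and 65.97 reads and its KO libraries 29.5, 41.8 and 34.3. The groups overlap, since KO replicate 2 lay above control replicate 1. It held neither a B1 copy nor the AP-1 string.

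Where the MORs lie was compared with all merged intervals that had a peak in either MEF group. The midpoint of 301 MORs (62.8%) lay in a protein-coding gene, against 51.6% of MEF intervals. Introns held 279 (58.2%, 95% Wilson interval 53.8 to 62.6) against 43.7%, and intergenic sequence 147 (30.7%) against 38.7%. Promoters, taken as 1000 bp around any transcript start, held 35 (7.31%) against 14.1%, and exons 18 (3.76%) against 3.51%. The MORs were nonetheless closer to genes than other MEF intervals. Their median distance to the nearest coding start was 10.8 kb against 22.8 kb. The class from 1 to 10 kb held 197 MORs (41.1%) against 21.8% of MEF intervals, and the class beyond 100 kb held 28 (5.85%) against 21.03%. Median lengths were close, 981 bp for MORs and 873 bp for MEF intervals. The level of opening differed little by place, with a median log2 ratio of 1.14 in introns, 1.01 in intergenic sequence, 0.94 in exons and 0.93 in promoters. MORs were found on every chromosome but Y, from 0.158% of the MEF intervals on chromosome 12 to 0.407% on chromosome 11. These shares were not tested, because intervals are not replicates of a condition.

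**Figure D3:**
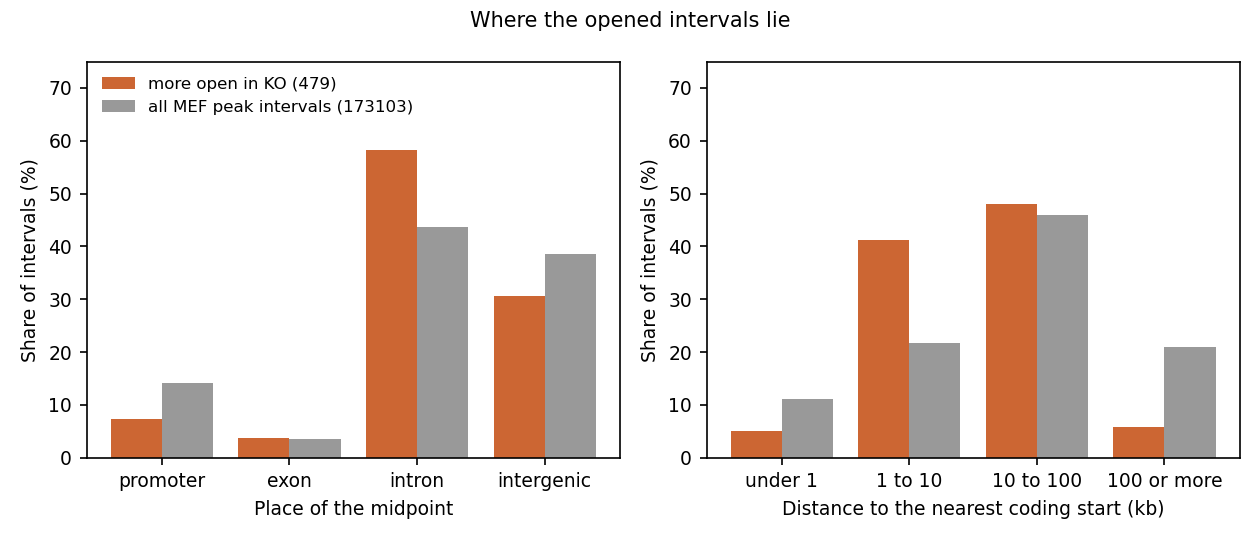
Share of intervals (y axis, percent) by place of the midpoint (left) and by distance to the nearest protein-coding start in kb (right), for the MORs (orange) and for all intervals with a MEF peak (grey). From 1 to 10 kb the shares were 41.1% and 21.8%, and in promoters 7.31% and 14.1%.

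Within 1000 bp of a coding start, 24 MORs were found, with log2 ratios from 0.34 to 1.82. Of these, 14 had a control peak and 22 a KO peak, 12 held a B1 copy and 17 the AP-1 string. Interval_39059, chr11:44622196-44622608, lay 641 bp from a start of Ebf1, a transcription factor of B lymphocytes and adipocyte precursors. It had 27.3, 24.7 and 23.9 reads in control and 79.5, 95.3 and 92.9 in KO and no control peak. The interval at Smad4, the common mediator of TGF-beta and BMP signals, had a log2 ratio of 1.82 and also no control peak. Interval_228987, at the mitochondrial isocitrate dehydrogenase gene Idh2, had 10.1, 8.25 and 7.65 reads in control and 32.8, 30.2 and 29.3 in KO. In each of these 3 the control libraries were all low, and the KO libraries lay above them, as in every MOR.

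The remaining start sites ranged from weakly to strongly accessible in control. At Mpi, the enzyme that makes mannose-6-phosphate, counts were 242.9 ± 11.8 in control and 332.7 ± 6.16 in KO. At Tmbim6 they were 174.1 ± 29.0 and 259.4 ± 15.6, at Prrc2b 150.3 and 251.7, and at Pear1 179.7 and 291.6. Lower counts were found at Madd (9.21 ± 3.94 and 31.9 ± 2.94), Ppp1r42 (24.1 ± 8.14 and 80.2 ± 12.2) and Herc4 (18.1 ± 3.39 and 44.2 ± 8.17). The 2 without any MEF peak were Tmem79, with 32.1 ± 5.93 and 55.0 ± 6.80, and Jsrp1, with 25.0 ± 5.68 and 54.1 ± 6.52. Over the reprogramming libraries, the mean at these 2 was 683.8 and 238.1. The other 12 were at Capn5, Ralgds, Dpf2, Pxt1, Suclg2, Nsun2, Fam50b, Ndel1, Btnl10, Afmid, Fam117b and Gipc2, with log2 ratios from 0.34 to 1.49.

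The MORs were assigned to 460 genes, by the host gene or else the nearest coding start, and 10 genes hosted more than 1. All 173103 MEF intervals were assigned to 18285 genes, and whether MORs were more spread than other intervals was not tested. Each of these 10 hosted 2. In Numa1, a spindle pole organiser, the first had 172.5, 169.5 and 152.0 reads in control and 329.5, 292.1 and 321.1 in KO, and the second 148.1, 158.5 and 153.9 against 227.0, 246.8 and 247.4. In Phf20, which encodes a reader of methylated lysine, the levels were 18.2 ± 0.87 against 78.4 ± 1.501 and 3.21 ± 0.92 against 20.4 ± 7.79. Nfatc3, a calcium-regulated transcription factor gene, had log2 ratios of 1.37 and 1.73. Depdc5, an inhibitor of mTORC1 signalling, had 1.29 and 0.87. For Kcnq1, Cgnl1, Rnf128, Fnbp1, Bcas3 and Slc14a2 the pairs of log2 ratios were 1.85 and 0.74, 1.34 and 1.84, 1.42 and 1.07, 0.79 and 0.67, 0.36 and 0.92, and 1.04 and 0.78. Kcnq1, Bcas3 and Slc14a2 are long genes that held 35, 56 and 62 MEF intervals, so most of their accessible intervals were not listed. An assignment to a gene says where an interval lies and not that the gene's expression changed.

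Functions at these loci were read from 25 gene lists, of which 24 are described. The share of all merged intervals that opened, 0.175%, is the value each list is set against. In all, 64 MORs (13.4%) were assigned to 60 genes of any list, and each list held between 0 and 10, so the shares rest on few intervals. None was tested. Pluripotency genes held 4 of 636 intervals (0.629%), at Sox2, Klf5, Esrrb and Fbxo15. Interval_160820, chr3:34755107-34755618, had Sox2 as its nearest coding gene, 104957 bp away, with 15.8, 10.99 and 18.2 reads in control and 102.4, 80.2 and 95.9 in KO. It had no control peak and a KO peak of fold 5.76. Interval_86208, 34570 bp from Klf5, had 15.3 ± 4.29 against 48.0 ± 3.95, and Interval_59407, in an intron of Esrrb, 79.1 ± 5.43 against 123.8 ± 7.45. At Fbxo15 the counts were 2.16, 7.33 and 1.91 against 12.3, 18.5 and 16.1. That KO lay above control at these loci follows from how the list was made.

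Genes of the KRAB zinc finger corepressor and heterochromatin list held 2 of 395 intervals (0.506%). Interval_28161, in an intron of Dnmt3l, the catalytically inactive partner of DNA methyltransferases, had 17.3, 14.7 and 13.4 reads in control and 63.9, 65.8 and 72.7 in KO. Interval_221275, 6643 bp from Atf7ip, a partner of the histone methyltransferase SETDB1, had 76.2, 63.2 and 76.5 against 174.6, 146.0 and 153.5. Both held a B1 copy and the AP-1 string. The chromatin remodellers and histone modifiers held 5 of 1546 (0.323%). Beside Chd7 they included Suz12, a subunit of Polycomb repressive complex 2, with 42.0 ± 6.64 against 125.6 ± 12.7 at an interval with 3 B1 copies. Chd9 had 9.57 ± 2.07 against 45.6 ± 11.1, and Arid1b, a subunit of the BAF complex, 41.5 ± 4.52 against 94.8 ± 5.82. Zinc finger genes named Zfp held 5 of 3763 (0.133%), among them 1 in Zfp609 (47.5 ± 11.3 against 145.0 ± 14.8) and 1 lying 133596 bp from Zfp462 (61.8 ± 7.19 against 170.6 ± 31.9).

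Fibroblast, matrix and adhesion genes were read in the same way. Mesenchymal and fibroblast transcription factors held 1 of 1439 intervals (0.0695%), in an intron of Tead4, with 55.4, 44.9 and 41.1 reads in control and 123.8, 112.5 and 155.5 in KO. The AP-1 family genes held 0 of 182. Extracellular matrix genes held 2 of 2092 (0.0956%). Interval_14294, 18487 bp from the laminin gene Lamc1, had 71.2, 52.2 and 62.1 against 198.3, 180.3 and 213.0, and Interval_237713, in the collagen gene Col4a2, 179.1 ± 15.4 against 290.4 ± 18.9. Integrin, focal adhesion and actin genes held 2 of 1580 (0.127%), 34501 bp from Myh9 (102.3 ± 16.6 against 167.8 ± 12.4) and 156052 bp from Itga4. The ADAM and ADAMTS proteases held 0 of 1312, and the cadherins and protocadherins 0 of 2734.

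The signalling lists held 1 to 3 MORs each. The TGF-beta and BMP pathway held 3 of 1605 (0.187%). Beside Smad4, these were Bmpr1b, a BMP receptor, with 24.4, 18.3 and 19.1 reads in control and 92.6, 59.6 and 84.8 in KO, and Smurf1, a ubiquitin ligase that acts on SMADs, with 92.7, 91.6 and 71.7 against 204.9, 193.4 and 205.0. The WNT pathway held 2 of 1349 (0.148%), near the secreted inhibitor Sfrp2 (42.3 ± 6.27 against 130.9 ± 10.4) and near the kinase gene Gsk3b (85.5 ± 11.2 against 165.7 ± 10.6). Hippo and NOTCH genes held 2 of 1137 (0.176%), at Amotl2 (11.3 ± 4.07 against 58.4 ± 12.6) and Maml3 (15.3 ± 4.60 against 52.9 ± 6.55). Receptor tyrosine kinase and FGF genes held 2 of 2385 (0.0839%). These lay 193415 bp from Kit (40.5 ± 8.21 against 70.5 ± 9.63) and 41238 bp from Spry4 (97.1 against 168.3). Innate immunity held 1 of 667 (0.150%), near Tnfaip3, an inhibitor of NF-kappaB signalling, with 108.9 ± 15.3 against 190.7 ± 13.2.

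Of the metabolic and other lists, adipogenesis and lipid genes held 2 of 1042 (0.192%), Ebf1 and Plin2. Interval_182173, 9740 bp from Plin2, which coats lipid droplets, had 22.3, 22.9 and 16.3 reads in control and 145.9, 100.8 and 117.1 in KO. The p53, senescence and cell cycle list held 1 of 1037 (0.0964%), near Rb1, and 3 of 1063 (0.282%, above the background) when intervals were assigned by the nearest start alone. Synapse and neuronal adhesion genes held 2 of 4045 (0.0494%), in Slit3 (359.1 ± 21.6 against 475.4 ± 31.7) and Lrp1b (27.2 ± 6.37 against 69.2 ± 3.96). Solute carriers held 10 of 5136 (0.195%), among them Slc7a7 (14.3 ± 1.73 against 68.3 ± 13.8). Potassium channel genes held 6 of 2120 (0.283%), kinesins and dyneins 3 of 1336 (0.225%), TBC and Rab genes 2 of 1425 (0.140%) and olfactory receptors 2 of 999 (0.200%). Hox genes held 1 of 164 (0.610%), 34447 bp from Hoxb1, with 201.6 ± 4.08 against 277.4 ± 18.2.

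**Figure D4:**
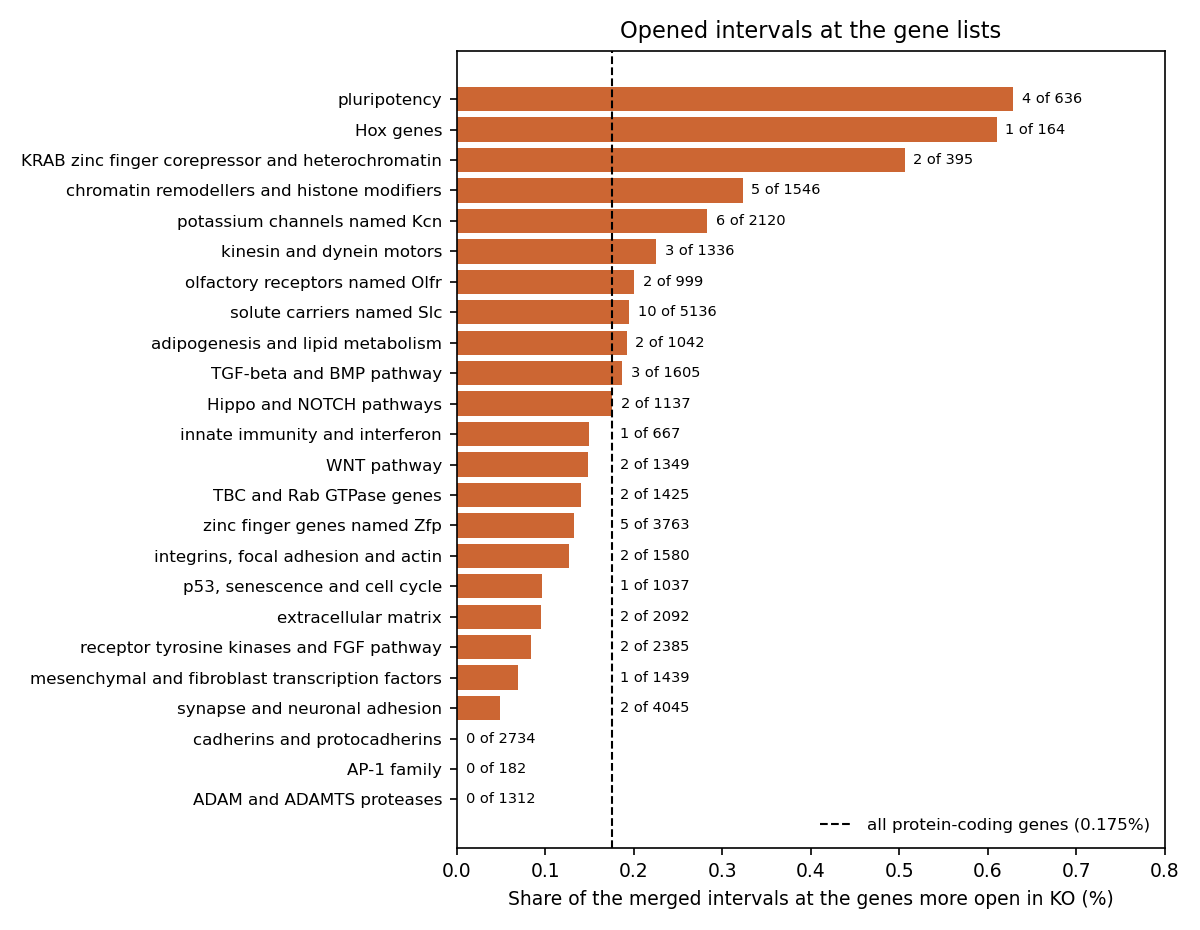
Share of the merged intervals assigned to the genes of each of 24 lists that were MORs (x axis, percent), with the number of MORs and of intervals beside each bar. The dashed line is the share over all protein-coding genes, 0.175%; pluripotency genes stood at 0.629% from 4 intervals and the AP-1 family at 0 of 182.

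The sequence of the MORs was read next, beside the same measure over all intervals with a MEF peak. In windows of equal length, the central 300 bp, 18.8% of MORs held at least 60 bases of a B1 copy, against 1.45% of MEF intervals. Over the whole interval the shares were 52.2% (250 MORs, 95% Wilson interval 47.7 to 56.6) and 7.03%, and those of B2, another SINE family, 12.1% and 4.36%. A median of 28.0% of the bases of a MOR were repeat-masked in the reference, against 12.1% over all MEF intervals. The 324 B1 copies were most often single, at 198 MORs, while 40 MORs held 2 and 12 held 3 to 6. They lay a median of 243.8 bp from the interval's midpoint, against 403.0 bp over all MEF intervals. As a share of the distance from midpoint to edge, the medians were 48.0% and 54.5%. Their median identity to the consensus was 83.8%, close to the 85.2% of B1 copies in all MEF intervals. MORs with a B1 copy had a median control count of 53.8 and a median log2 ratio of 0.96, and those without one 34.3 and 1.18. Among the 5 MORs with a log2 ratio of at least 3, 4 held a B1 copy.

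The AP-1 string TGANTCA, which reads the same on both strands, was found in the central 300 bp of 179 MORs (37.4%), against 24.8% of MEF intervals. Over the whole interval it was in 342 MORs (71.4%) against 49.5%, with a mean of 1.16 and 0.84 strings per kb. The string nearest the midpoint lay within 61.2 to 325.8 bp of it (quartiles) in MORs, and within 61.0 to 348.0 bp over all MEF intervals that held one. B1 copies and the string occurred together in 176 MORs (36.7%) against 4.08%. In MORs with a B1 copy, 21 of 291 strings lay inside the copy, and the others lay a median of 186.0 bp from its edge. Of the 12 intervals with the smallest p-values, 8 held a B1 copy and 10 held the string, where the shares over all MORs were 52.2% and 71.4%.

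**Figure D5:**
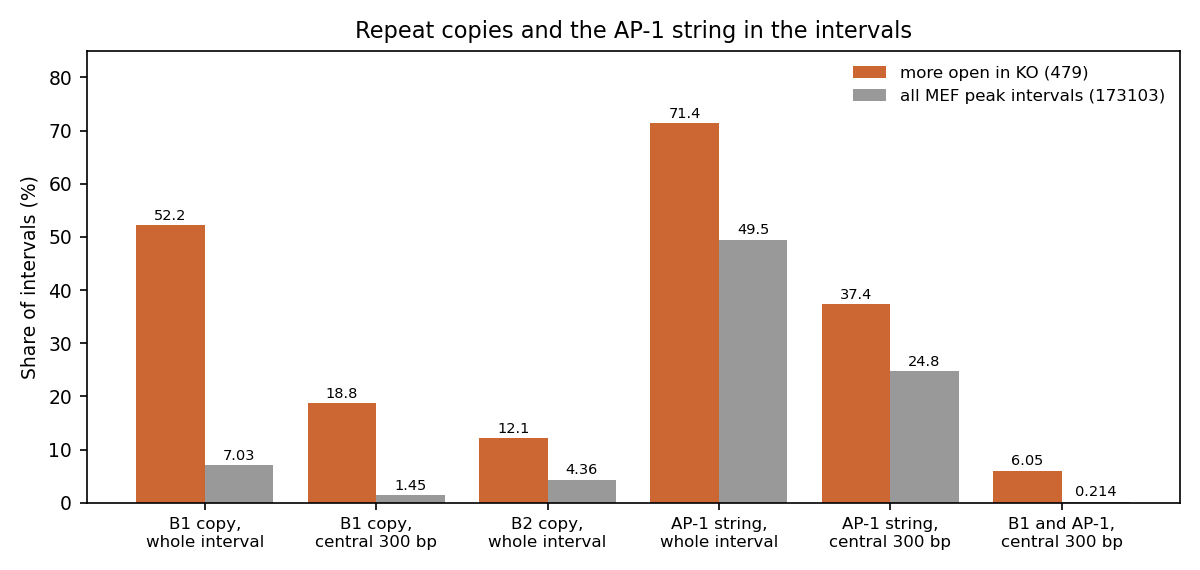
Share of MORs (orange) and of all intervals with a MEF peak (grey) that held a B1 or B2 copy or the AP-1 string (y axis, percent), over the whole interval or its central 300 bp. In the central 300 bp a B1 copy was in 18.8% and 1.45%, and the AP-1 string in 37.4% and 24.8%.

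A single place in the element was examined. The consensus has TGGCGCA at bases 12 to 18, counted from its 5′ end, and the substitutions G14A and G16T turn this into TGACTCA. The string was found there, within 3 bases, in 18 of the 324 B1 copies of MORs (5.56%), against 96 of 14607 copies in all MEF intervals (0.657%). The copies near Chd7 and C77080 printed above are of this kind and show the changed bases in lower case, and in Interval_99162 the string only overlaps the 5′ end of the aligned copy. These 3 are among the 12 intervals with the smallest p-values. Others named by rule were assigned to Phf20, Tead4, Klf5, Madd and Kit, with log2 ratios from 0.78 to 2.05. The median log2 ratio was 1.54 at the 18 MORs with such a copy and 0.94 at the 232 MORs with other B1 copies. Median control counts of these sets were 35.8 and 55.5, so they also differed in starting level. This place was chosen because the string was most frequent there in the B1 copies of all MEF intervals, after the sequences had been seen, and no test was made. In copies with at least 90% identity to the consensus the shares were 1 of 105 and 11 of 5368.

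The reprogramming libraries show the same loci in another condition. They are not independent of the list, since their peaks helped to define the intervals. Of the 479 MORs, 70 (14.6%, 95% Wilson interval 11.7 to 18.1) were also in the deposited reprogramming table, which lists 1608 intervals (0.588% of the merged intervals). All 70 were more open in reprogramming KO, with log2 ratios from 0.36 to 2.71, and 51 held a B1 copy. Of all 1608 intervals listed there, 1522 were more open in KO (0.557% of the merged intervals), so this direction was common to most of them. Both tables are cut at the authors' threshold, so the ratios at shared intervals are given side by side and not tested. Interval_174985, near Chd7, had 22.4, 21.8 and 9.14 reads in reprogramming control and 50.3, 43.1 and 60.3 in reprogramming KO, a log2 ratio of 1.48 where the MEF value was 3.54. Near Rps3 the log2 ratio was 1.54 against 2.47 in MEFs, near C77080 1.25 against 3.32, and in Ccdc58 1.40 against 2.15. At Smurf1 it was 0.59 against 1.23, while at Fbxo15 it was larger in reprogramming, 2.08 against 1.79. Over the 70, the median was 0.93 in reprogramming and 1.06 in MEFs, and 29 had the larger ratio in reprogramming. At the other 409 MORs only the mean over the 6 reprogramming libraries could be had. Over all MORs this mean was above the MEF control mean at 265 and above the MEF KO mean at 134. A reprogramming control peak overlapped 49.9% of MORs and a reprogramming KO peak 58.0%, against 44.5% and 44.0% of all MEF intervals. The 19 MORs without a MEF peak have a reprogramming peak by construction, and without them the shares were 48.0% and 56.3%.

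The listed intervals were refitted with edgeR's quasi-likelihood test and Benjamini-Hochberg adjustment over all 273256 merged intervals, on the libraries that made the list. This called 477 more open (0.175%) and 1 more closed. The closed call was lost with DESeq2 and when control replicate 2, control replicate 3, KO replicate 1 or KO replicate 3 was left out. Those not called were Interval_146553, 156052 bp from Itga4, with 45.7 ± 4.27 against 71.8 ± 8.25, and Interval_30111, 419703 bp from Nedd1, with 18.4 against 34.4. The latter is named because it lay at the limit. Intervals just outside the authors' threshold are not analysed here. With factors by TMM computed over the listed intervals alone, which centres the list on 0, 44 intervals were called more open and 51 more closed. Without any scaling, 225 and 0 were called (468 at an unadjusted p under 0.05).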

How the data were processed

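Omni-ATAC-seq libraries of MEF control and MEF Zfp266 KO cells (3 each) were analysed, with 6 reprogramming libraries beside them. According to the study's methods, reads were trimmed with cutadapt and aligned to GRCm38.p6 with BWA. Duplicate, mitochondrial, blacklisted and improperly paired reads were removed. The authors deposited raw read counts per interval, counted with Rsubread over the union of the peaks of all groups. They also deposited normalised counts (the signal used here), which are raw counts divided by a DESeq2 size factor per library (0.99 to 1.46 for the MEF libraries). The deposited tables keep only intervals at an adjusted p under 0.05 in their contrast. Their columns of log2 fold change, SE, Wald statistic, p and adjusted p were not used. The deposited MACS2 broad peaks, 1 list per group from merged replicates, give fold enrichment (a ratio over local background) and the -log10 q-value, and they carry no replicate error.

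Peaks of the 4 groups were merged into 273256 intervals, of which 173103 held a MEF peak. Midpoints were placed on GENCODE M21. Raw counts were fitted with edgeR 4.0.16 (quasi-likelihood test, deposited size factors), with Benjamini-Hochberg adjustment that counts every merged interval as a test. The fit could use only the listed intervals, so its dispersions, SEs and p-values rest on selected intervals, and the adjustment assumes that every unlisted interval has a larger p-value. DESeq2 1.42.0 was an alternative. The edgeR fit was tested on simulated data. B1 and B2 families were built from masked chromosome 19 sequence and searched with blastn 2.17.0 (E under 1e-05, at least 60 aligned bases). Wilson intervals (95%) cover counting error only. The labels do not say that libraries came from separate cultures, so p-values measure only the spread between these libraries.

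Intervals were named by rule: the 12 smallest edgeR p-values, the 8 largest ratios, all within 1000 bp of a coding start, genes hosting at least 2, up to 4 per gene list by p, the closed interval, and the 5 lowest and 5 highest control means. Any other is named as chosen after its values were seen. The members, gene lists and tests were chosen with earlier results of these data known. Some intervals and 1 gene list are not reported here.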

Additional observations from a re-analysis of the deposited data

How the results depend on the processing

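The number of calls differed between scalings. Against 477 more open intervals with the deposited size factors, TMM factors over the listed intervals gave 44 more open and 51 more closed, a split set by centring the list on 0. Unscaled counts gave 225, with 468 of 480 at an unadjusted p under 0.05. DESeq2 gave 432, a mean raw count of at least 20 gave 457 of 460, and leaving out 1 library gave 429 to 460. The median log2 ratio was 0.89 with a pseudocount of 10 and 1.12 without scaling, and 1.05 to 1.08 when 1 library was left out. The following shares are of MORs, each against the share of all MEF intervals under the same setting. Promoters held 13.8% against 18.8% at 2000 bp, 2.92% against 10.7% at 500 bp, and 5.01% against 11.2% from coding starts only. Introns held 52.4% against 40.9% at 2000 bp. A control peak covered at least 50% of the interval at 36.1% against 84.0%. The B1 share was 36.7% against 5.07% at 100 aligned bases and 44.5% against 6.14% at E under 1e-10, and the AP-1 share 37.4% against 24.8% in the central 300 bp, which is a smaller window. The cause of the other shifts was not tested. Assignment by nearest start alone moved 1 of 25 gene lists by over 1.5 times, that of p53, senescence and cell cycle, from 1 to 3. With the replicate number as a block the count was 477. Deviations of same-numbered libraries correlated at 0.21, 0.14 and 0.04, and for each control library the same-numbered KO library was the best match. These correlations are small and the numbers were not taken as pairs, but whether the libraries were paired is not known. The tables hold only intervals past the authors' threshold, so intervals with smaller differences are not analysed here.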
